A study of Mus musculus with 12 samples.

Results

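Nonsense-mediated mRNA decay (NMD) is the pathway by which cells destroy mRNAs whose translation ends too early, and 9 of its factors are described here from RNAseq of mouse macrophages in which the splicing factor SF3a1 was depleted. The genes were taken from a list by name: Upf1, Upf2, Upf3a, Upf3b, Smg1, Smg5, Smg6, Smg8 and Smg9. They are 9 of the 38215 genes in the count table, all 9 had enough reads to be tested, and they hold 230 of the 354841 exon bins, of which 211 were tested. An exon bin is a stretch between neighbouring annotated exon boundaries of a gene.

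RAW264.7, an established mouse macrophage line of BALB/c origin, was transfected with either non-targeting (control) siRNA or siRNA against SF3a1, and 24 hours later was left untreated or given 20 ng/ml LPS, a bacterial cell wall component sensed by TLR4, for 4 hours. Both siRNAs were used in resting and in LPS-treated cells, which gave 4 groups of 3 biological replicates. Poly-A RNA was sequenced, and between 12746019 and 41091887 reads per library fell on genes. Every group came from the same cell line, and the knockdown was transient. In bulk RNA, fewer cells that express a gene and less of its RNA per cell cannot be told apart.

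The UPF1 helicase is the centre of NMD. UPF2 and the paralogs UPF3A and UPF3B link UPF1 to the exon junction complex, which splicing leaves on the mRNA and which marks a stop codon as premature when it lies downstream. The kinase SMG1, held in a complex with SMG8 and SMG9, phosphorylates UPF1, and phosphorylated UPF1 recruits SMG6, which cuts the mRNA, and SMG5, which acts in bringing in decapping and deadenylation. Splicing errors create many premature stop codons, and several mRNAs that encode NMD factors are themselves known as NMD targets.

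The libraries were first checked against their labels. Levels are in CPM, the read count scaled to library size. Sf3a1 stood at 173, 216 and 185 CPM in control siRNA replicates 1, 2 and 3 without LPS, and at 27.1, 27.5 and 32.1 CPM with SF3a1 siRNA. With LPS the values were 150.0, 194 and 157 CPM with control siRNA and 30.3, 26.7 and 45.1 CPM with SF3a1 siRNA. The groups did not overlap, and Sf3a1 fell by 2.73 (SE 0.204, adjusted p = 1.14e-05) and by 2.30 (SE 0.200, adjusted p = 1.47e-05) on the log2 scale. All adjusted p-values for genes are from edgeR's quasi-likelihood test over the 12 libraries with Benjamini-Hochberg adjustment over 14983 genes, and a change was called at 0.1 or less. The macrophage marker Lyz2 averaged 5080 RPKM (CPM per kilobase of exon) over the 12 libraries. All 8 macrophage markers were tested: Lyz2 rose with SF3a1 siRNA without LPS (0.47), and with LPS Csf1r (0.69) rose and Fcgr1 (-3.20), Adgre1 (-0.71) and Ptprc (-0.67) fell, and 5 rose and 1 fell with LPS in control cells. Over all tested genes 33.8, 38.8 and 32.1% were called in these 3 comparisons. The 12 markers of other cell types had summed levels of 0.268 to 1.85 CPM, none passed the filter on low counts, their most abundant gene per length was Cdh5 (0.0804 RPKM on average), and the NK cell marker Ncr1 was at 0 in every library.

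In each group the first replicate combined 2 sequencing runs. Upf1, Smg5 and Smg9 were highest in replicate 1 in all 4 groups, as were 16% of the tested genes, and 15.5% of the tested genes were lowest there. No NMD factor was lowest in replicate 1 in every group. Replicate 2 of SF3a1 siRNA with LPS held the lowest summed level of the 9 genes, 623 CPM, against 741 to 961 CPM in the other 11 libraries. The part of these differences between libraries in the results below was not tested, beyond leaving libraries out.

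Per length, Smg5 was the most abundant of the 9 mRNAs in resting control cells, at 68.1 ± 10.7 RPKM (SD, n = 3). Upf1 followed at 39.9 ± 6.30 RPKM and Upf3a at 18.2 ± 1.75 RPKM, and the libraries of these 3 genes did not overlap with each other. Smg8 stood at 12.9 ± 1.04, Smg9 at 12.4 ± 2.35, Upf2 at 10.2 ± 1.57, Upf3b at 7.92 ± 1.15, Smg6 at 6.08 ± 0.476 and Smg1 at 5.79 ± 0.370 RPKM. Within this second set each gene overlapped its neighbour in the order. The length used for Smg1, 21205 nt, includes 5032 nt that only transcripts with a retained intron carry, which lowers its level per length. Likewise, 1616 of the 3999 nt of Upf3b and 1313 of the 3702 nt of Smg9 are kept only by non-coding transcripts. The same holds for 2556 of the 8453 nt of Smg6 and 300 of the 5474 nt of Upf2. The order of these genes per length thus depends on the annotation.

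SF3a1 siRNA without LPS changed 3 of the 9 NMD factor mRNAs: Upf3b and Upf3a fell and Smg8 rose. The same 3 genes changed in the same directions when LPS was present. Over all tested genes 33.8% were called without LPS (13.7% higher and 20.1% lower) and 38.8% with LPS (18.4% higher and 20.4% lower), so 3 of 9 is close to the share of all genes. The median log2 fold change of the 9 genes was -0.22 without LPS and -0.08 with LPS, beside -0.02 and -0.04 over all tested genes.

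**Figure D1:**
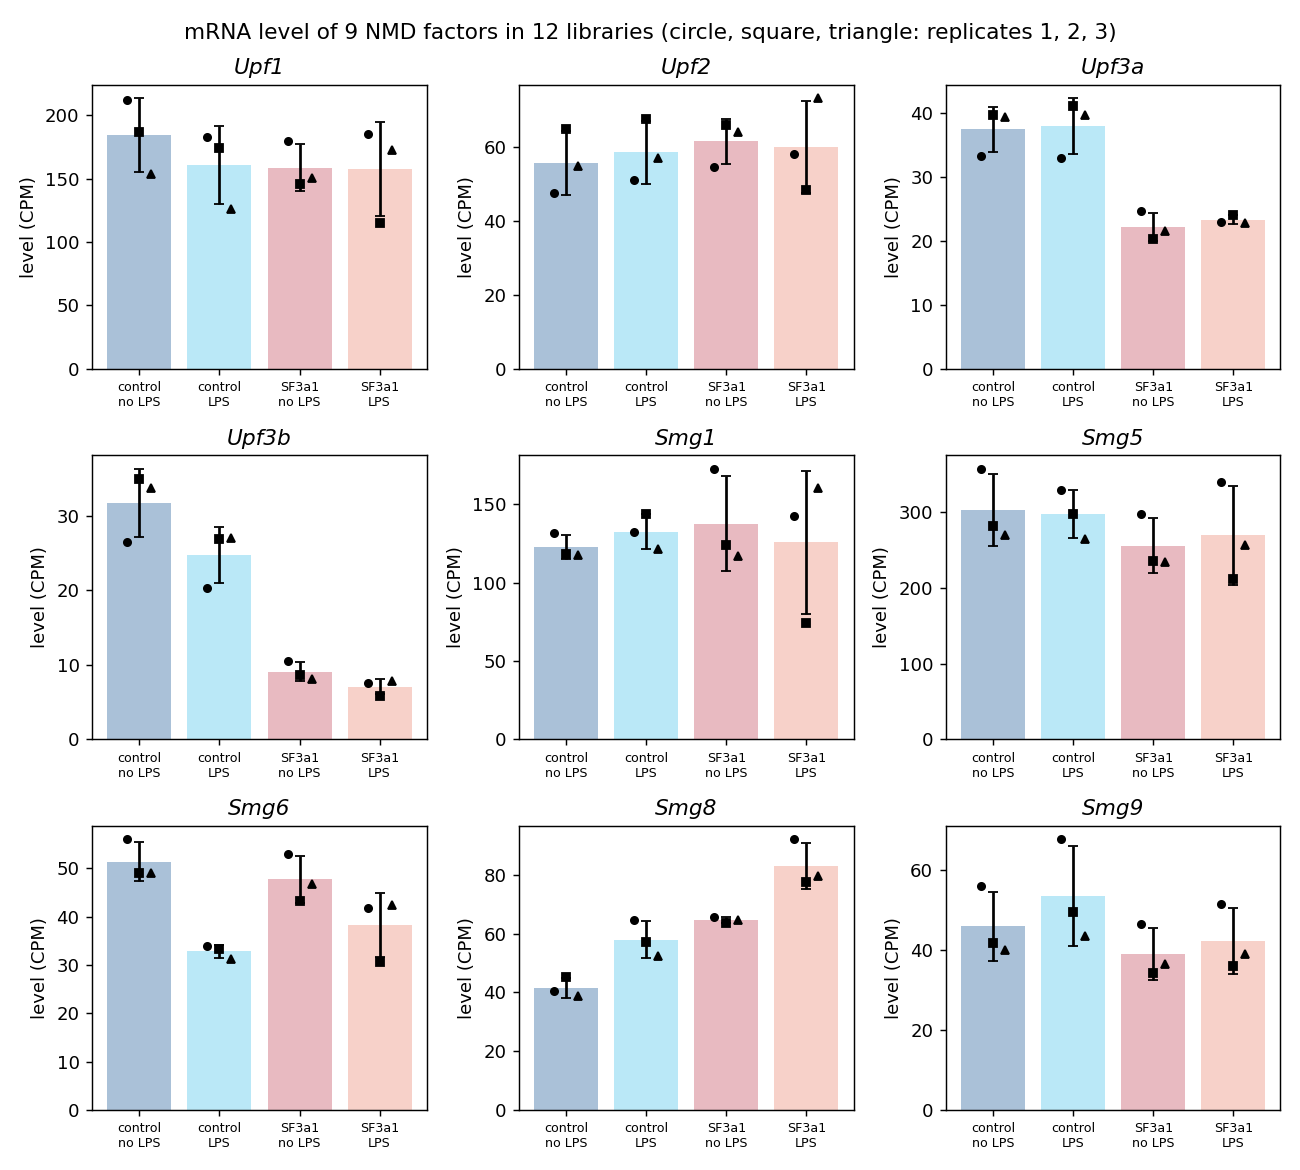
Level of each NMD factor mRNA, in CPM on a linear axis from 0, in the 4 groups. Bars are means and error bars SD (n = 3), and symbols are libraries. The 6 SF3a1 siRNA libraries lie below the 6 control siRNA libraries for Upf3a and Upf3b, while those of Upf1, Upf2, Smg1, Smg5 and Smg9 overlap in every comparison.

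UPF2 and UPF3, the proteins that connect UPF1 to the exon junction complex, included the largest change. Upf3b (ENSMUSG00000036572, chrX:37091678-37110322, minus strand, mm10) stood at 26.4, 34.9 and 33.8 CPM in control siRNA replicates 1, 2 and 3 and at 10.5, 8.64 and 8.03 CPM with SF3a1 siRNA. With LPS it stood at 20.3, 26.9 and 26.98 CPM with control siRNA and at 7.51, 5.86 and 7.80 CPM with SF3a1 siRNA. Every SF3a1 siRNA library was below every control library, whether or not LPS was given. Upf3b fell by 1.80 (SE 0.196, adjusted p = 7.10e-05) without LPS and by 1.80 (SE 0.197, adjusted p = 5.78e-05) with LPS on the log2 scale, to 0.288-fold and 0.287-fold of the control level. Of all tested genes, 2.61% had a lower log2 fold change than Upf3b without LPS and 3.58% with LPS. The difference between its SF3a1 effects with and without LPS was -0.00 (95% interval -0.56 to 0.56).

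Upf3a (ENSMUSG00000038398, chr8:13785615-13799193, plus strand), the paralog of Upf3b, moved the same way by less. Its level was 33.4, 39.7 and 39.4 CPM with control siRNA and 24.7, 20.3 and 21.6 CPM with SF3a1 siRNA. With LPS it was 33.0, 41.2 and 39.8 CPM with control siRNA and 23.0, 24.1 and 22.8 CPM with SF3a1 siRNA. Again the groups did not overlap. Upf3a fell by 0.75 (SE 0.145, adjusted p = 0.00223) without LPS and by 0.70 (SE 0.145, adjusted p = 0.00291) with LPS on the log2 scale. Upf3b per length was 0.433 ± 0.0228 of Upf3a in resting control cells and 0.210 ± 0.0159 with SF3a1 siRNA (SD, n = 3), and 0.334 ± 0.0161 and 0.156 ± 0.0273 with LPS. The length used for Upf3b, 3999 nt, includes 1616 nt that only non-coding transcripts keep, which lowers this ratio. The relative change of the ratio between groups does not depend on that length. The ratio in each of the 6 SF3a1 siRNA libraries, 0.125 to 0.220, lay below that in each of the 6 control libraries, 0.317 to 0.451. Upf2 (ENSMUSG00000043241, chr2:5951469-6056703, plus strand), which bridges UPF1 and UPF3, had means of 55.7 ± 8.58 and 61.4 ± 6.16 CPM without LPS and 58.5 ± 8.46 and 59.9 ± 12.4 CPM with LPS, control siRNA first. These groups overlapped, and the 95% intervals of its log2 fold change were -0.25 to 0.53 and -0.36 to 0.43.

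Upf1 (ENSMUSG00000058301, chr8:70331525-70353278, minus strand), the helicase itself, passed no test. It stood at 212, 187 and 154 CPM with control siRNA and 180, 146 and 150 CPM with SF3a1 siRNA, and with LPS at 183, 174 and 126 CPM and at 185, 115 and 173 CPM. The log2 fold change was -0.22 (95% interval -0.66 to 0.23) without LPS and -0.03 (95% interval -0.47 to 0.41) with LPS and the groups overlapped.

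In the SMG1 kinase complex 1 of the 3 subunits, Smg8, passed the test. Smg8 (ENSMUSG00000020495, chr11:87077732-87086774, minus strand), which restrains the kinase, stood at 40.5, 45.1 and 38.6 CPM with control siRNA and at 65.6, 63.5 and 64.7 CPM with SF3a1 siRNA. With LPS it was 64.6, 57.1 and 52.3 CPM with control siRNA and 92.1, 77.4 and 79.6 CPM with SF3a1 siRNA. The lowest level was in resting control cells and the highest after both treatments. Smg8 rose by 0.64 (SE 0.132, adjusted p = 0.00326) without LPS and by 0.52 (SE 0.131, adjusted p = 0.00983) with LPS on the log2 scale. Smg1 (ENSMUSG00000030655, chr7:118131308-118243670, minus strand), the kinase, ranged from 117 to 173 CPM in the 9 libraries other than those of SF3a1 siRNA with LPS, and was 142, 74.2 and 161 CPM there. Its log2 fold changes were 0.17 (SE 0.241) and -0.08 (SE 0.241) and passed no test. Smg9 (ENSMUSG00000002210, chr7:24399619-24422778, plus strand), the partner of SMG8, went from 45.9 ± 8.72 to 39.1 ± 6.50 CPM without LPS and from 53.5 ± 12.6 to 42.2 ± 8.25 CPM with LPS (SD, n = 3). The change with LPS, -0.34 (SE 0.212), had an adjusted p = 0.251 and passed the test with replicate number as a block (-0.34, adjusted p = 0.0259).

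The effectors Smg5 and Smg6 passed no test for SF3a1 siRNA. Smg5 (ENSMUSG00000001415, chr3:88336260-88362338, plus strand) had means of 303 ± 47.6 and 256 ± 36.6 CPM without LPS and 297 ± 32.0 and 269.8 ± 65.4 CPM with LPS, control siRNA first. Smg6 (ENSMUSG00000038290, chr11:74925823-75164448, plus strand), the endonuclease, had a log2 fold change of -0.10 (SE 0.152) without LPS and 0.22 (SE 0.153) with LPS. Without replicate 2 of SF3a1 siRNA with LPS the second value was 0.36 (adjusted p = 0.0755), which passed.

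LPS with control siRNA changed 2 of the 9 genes, Smg6 and Smg8, against 32.1% of all tested genes (13.8% higher and 18.3% lower). The median log2 fold change of the 9 was 0.02, beside -0.02 over all tested genes. Smg6 stood at 56.0, 49.1 and 49.0 CPM without LPS and at 34.0, 33.3 and 31.3 CPM with LPS, with no overlap, and fell by 0.65 (SE 0.153, adjusted p = 0.00690) on the log2 scale. Smg8 rose by 0.49 (SE 0.131, adjusted p = 0.0150) from the values above. With no filter on low counts the rise of Smg8 was 0.47 (adjusted p = 0.113) and did not pass.

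With SF3a1 siRNA, LPS changed 0 of the 9 genes by edgeR, against 10.7% of all tested genes. At an unadjusted p under 0.05 there was 1, Smg8 (log2 fold change 0.36, adjusted p = 0.134), beside 2878 of the 14983 genes tested. DESeq2's Wald test called 0 of the 9 and 2012 of all genes. Smg8 passed with replicate number as a block (0.36, adjusted p = 0.0519), a fit that called 3115 rather than 1598 of all genes. All 3 LPS libraries of Smg8 were above, and those of Smg6 and Upf3b below, the libraries without LPS. The difference between the SF3a1 effects with and without LPS passed for 0 of 9 genes, against 3.47% of all genes. At an unadjusted p under 0.05 there were 0 of the 9 and 1968 of the 14983 genes tested, and DESeq2's Wald test called 0 of the 9 and 966 of all genes.

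**Figure D2:**
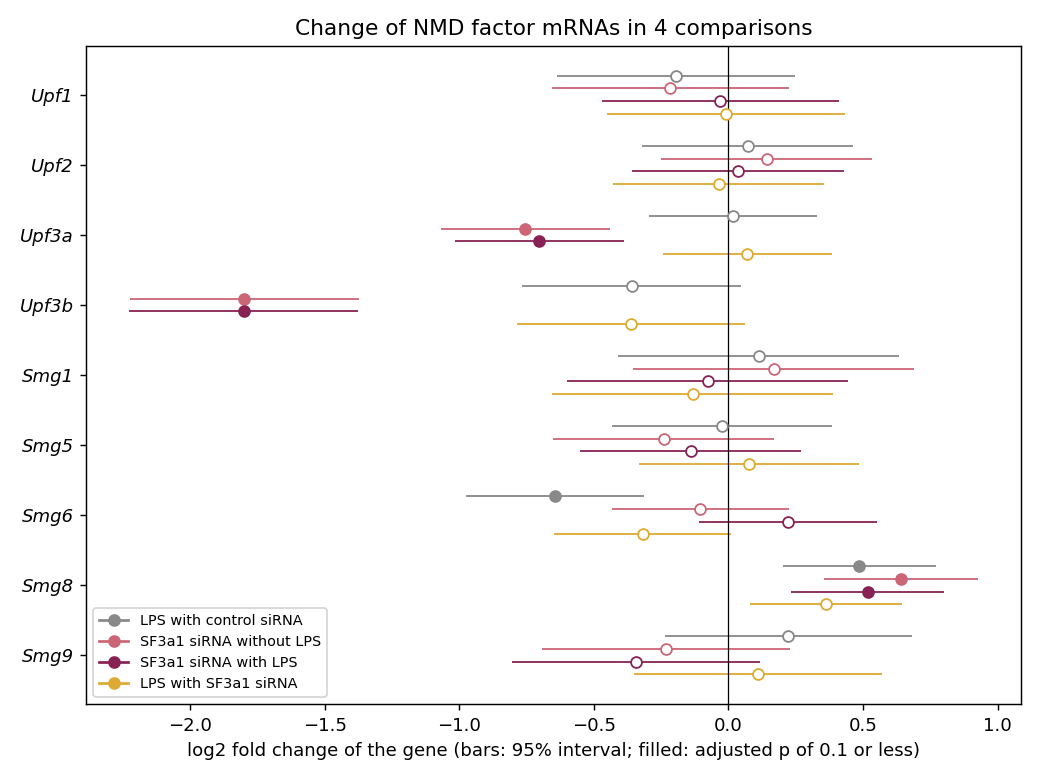
Log2 fold change of each NMD factor gene in 4 comparisons, with 95% intervals. Filled points have an adjusted p of 0.1 or less. Upf3b lies near -1.80 in both SF3a1 comparisons and Upf3a at -0.75 and -0.70, Smg8 lies to the right of 0 in all 4 comparisons, and Smg6 is filled for LPS with control siRNA alone.

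Whether all 3 libraries of a group lay on the same side of the other group is a looser measure. By it 3 of the 9 genes separated with SF3a1 siRNA in resting cells and 3 in LPS-treated cells, against 45.6 and 39.1% of all tested genes. For LPS the counts were 2 of 9 with control siRNA and 3 of 9 with SF3a1 siRNA, against 40.2 and 24.8%.

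Over the 12 libraries, the log2 CPM of Upf3a and Upf3b had a Pearson r of 0.948, the highest of the 36 pairs. Smg5 and Smg9 (0.891) and Upf1 and Smg5 (0.835) came next, and Smg8 had the lowest values, with Upf3b (-0.863) and Upf3a (-0.736). These are descriptions over libraries that share group and replicate number. The 5 other genes whose log2 CPM was most like the mean of the 9 were Pdpk1 (0.963), Ubap2l (0.957), Atg2b (0.955), Eif4g1 (0.954) and Senp1 (0.953).

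The exon bins addressed whether a change lay in the whole mRNA or in some of its exons. Here 11 libraries were used, and the bins of replicate 3 of the LPS-treated control cells were not analysed here. A read is counted in each bin that it overlaps, so neighbouring bins share reads. Of the 14 bins of Upf3b 11 were tested, and all 11 were lower with SF3a1 siRNA without LPS, with log2 ratios of mean CPM from -3.11 to -1.23 (median -1.80), and 10 of 11 with LPS (median -1.74). All 9 bins of Upf3a were lower in both comparisons, with medians of -0.77 and -0.59. All 6 tested bins of Smg8 were higher in both, with medians of 0.77 and 0.51.

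**Figure D3:**
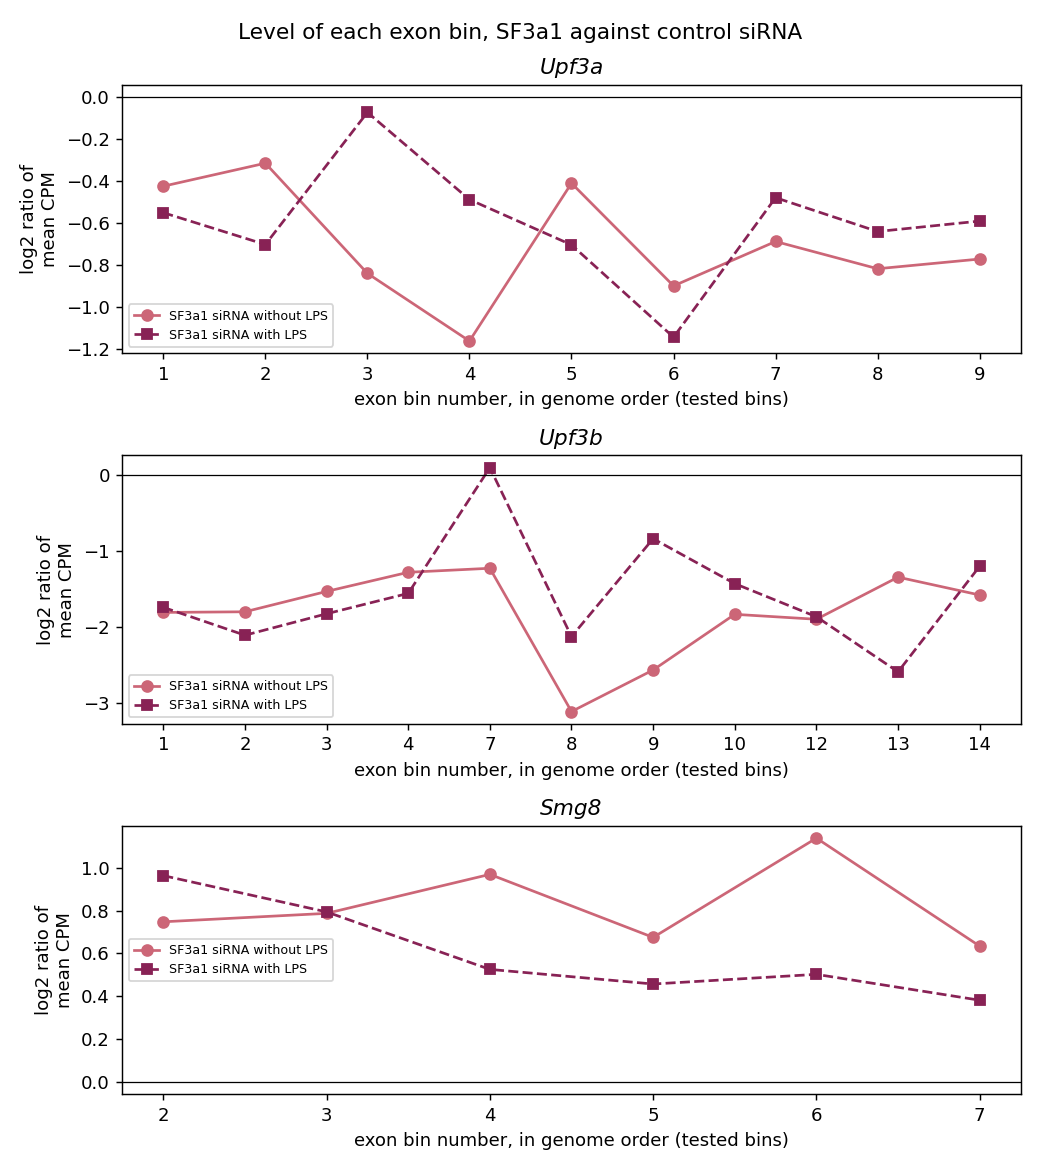
Log2 ratio of mean CPM, SF3a1 against control siRNA, for each tested exon bin of Upf3a, Upf3b and Smg8, in genome order (Upf3b and Smg8 are transcribed from right to left). Circles are without LPS and squares with LPS. Upf3b bin 7 with LPS, at 0.09, is the single Upf3b point above 0.

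The usage of a bin relative to the rest of its gene was tested with edgeR's diffSpliceDGE. No bin of the 9 genes was called in any comparison, against 0.626% of all tested bins for SF3a1 siRNA without LPS, 0.492% with LPS, 0.0801% for LPS with control siRNA, 0.0254% for LPS with SF3a1 siRNA and 0% for the difference between the SF3a1 effects. At an unadjusted p under 0.05 there were 2, 3, 3, 0 and 2 of the 211 bins in that order, which is 0.95, 1.42, 1.42, 0 and 0.95%, beside 3.39, 3.99, 1.97, 1.29 and 1.35% of the 153624 bins tested in all. By limma's diffSplice 0 of the 211 bins were called in each comparison, beside 790, 655, 103, 21 and 1 over all bins. At an unadjusted p under 0.05 limma gave 7, 9, 9, 2 and 3 of the 211 bins, so these counts depend on the test. The share of all bins at that p by limma is not given here. With shares of called bins this low, a count of 0 among 211 does not separate these genes from others.

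Among the 211 bins the smallest p belonged to Upf3b bin 7, a 183 nt stretch of coding exon at chrX:37099507-37099689. It held 5.01, 3.81 and 4.80% of the bin counts of Upf3b with control siRNA and 5.94, 6.92 and 6.15% with SF3a1 siRNA. With LPS it held 2.28 and 1.75% with control siRNA (replicates 1 and 2) and 5.31, 8.48 and 6.38% with SF3a1 siRNA. Those control values rest on 22 and 7 counts. The change in usage, on the natural log scale, was 0.35 without LPS and 1.19 with LPS (adjusted p = 0.525 by edgeR's diffSpliceDGE). The groups did not overlap in either state. As the bin was chosen by its p, this separation adds no support. The share of all bins that separate is not given here. Next to it on the mRNA lies bin 6, chrX:37099066-37099104, a 39 nt coding exon that 2 of the 3 annotated transcripts carry. It received 5 counts in all 11 libraries, all with control siRNA, which is too few to compare. The pair is shown as a place, not the only one, where annotated Upf3b transcripts differ, from GENCODE vM21 (mm10, minus strand) in the direction of the mRNA. Lower case before the capitals is bin 7, capitals are bin 6, and the last 15 bases are the exon that follows.
Upf3b bins 7 and 6: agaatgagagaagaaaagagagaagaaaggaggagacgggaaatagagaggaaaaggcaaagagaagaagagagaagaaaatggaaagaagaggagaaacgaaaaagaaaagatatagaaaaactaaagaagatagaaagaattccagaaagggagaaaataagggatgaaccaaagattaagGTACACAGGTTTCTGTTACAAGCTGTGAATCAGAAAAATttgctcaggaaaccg

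Upf2 holds 2 bins of 3 nt, each the first bases of an exon that another transcript starts 3 nt further on. They are shown because each marks a pair of splice acceptors 3 nt apart, and because bin 18 had the smallest p in Upf2. Sequences are from GENCODE vM21 (mm10, plus strand), with the 3 nt bin in capitals and 15 bases of the spliced mRNA on either side.
Upf2 bin 18 (chr2:6040109-6040111): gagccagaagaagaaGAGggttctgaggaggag
Upf2 bin 21 (chr2:6046898-6046900): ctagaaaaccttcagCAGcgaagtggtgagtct
Upf2 bin 18 received 59, 20 and 8 counts with control siRNA, which were 2.03, 1.08 and 0.492% of the bin counts of Upf2, and 3, 14 and 2 counts with SF3a1 siRNA, which were 0.153, 0.916 and 0.183%. With LPS the share was 0.632 and 0.284% with control siRNA and 0.385, 0.396 and 0.208% with SF3a1 siRNA. The groups overlapped in both states, and the change passed no test (adjusted p = 1 by edgeR's diffSpliceDGE without LPS). Upf2 bin 21 held 1.62, 0.812 and 1.11% with control siRNA and 1.73, 1.70 and 1.005% with SF3a1 siRNA, again with overlap.

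In each of the other 7 genes, too, the bin with the smallest p had an adjusted p = 1 by edgeR's diffSpliceDGE. With LPS, Smg6 bin 21 (chr11:75156161-75156314) held 8.48 and 4.39% of the bin counts of Smg6 with control siRNA and 3.72, 2.67 and 3.74% with SF3a1 siRNA. The change in usage was -0.65 on the natural log scale, which is used for all changes in usage below. Without LPS Smg6 bin 21 held 3.71 ± 0.300% and 4.67 ± 1.25% (SD, n = 3), control siRNA first, a natural log change of 0.22. With LPS, Smg5 bin 14 (chr3:88353876-88353951) held 3.21 and 1.66% with control siRNA and 1.80, 1.23 and 1.32% with SF3a1 siRNA, a natural log change of -0.51. With LPS the groups were apart for Smg6 and overlapped for Smg5, and in each the control replicate 1 was the highest. These bins, too, were chosen by their p, so a separation adds no support. On the natural log scale, the changes in usage were -0.44 for Smg1 bin 1 and 0.25 for Smg8 bin 6 without LPS. They were 0.77 for Smg9 bin 20, 0.38 for Upf1 bin 15 and -0.40 for Upf3a bin 6 with LPS. In the other state the mean shares, control siRNA first, were 7.27 and 6.90% for Smg1 bin 1 and 12.65 and 12.31% for Smg8 bin 6. There they were 0.672 and 0.880% for Smg9 bin 20, 3.22 and 3.27% for Upf1 bin 15 and 5.26 and 4.44% for Upf3a bin 6.

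Bins that only non-coding transcripts keep and other transcripts splice out were read as intron bins. Their density, as a percent of the density of the gene's other bins, could be computed for 5 NMD factors. In Smg9, whose 4 intron bins span 1313 nt and held 312 counts, it was 2.36 ± 0.63% and 3.30 ± 0.76% without LPS (SD, n = 3), control siRNA first. With LPS it was 1.79 and 2.22% with control siRNA and 2.75, 2.73 and 4.62% with SF3a1 siRNA. The groups overlapped without LPS and not with LPS. Over 3702 genes with such bins, all SF3a1 siRNA libraries lay above all control libraries in 22.2% without LPS and 25.0% with LPS, and below in 3.70 and 7.64%. With LPS there were 2 control libraries rather than 3, so groups separate more easily and the 2 states cannot be compared by these shares. Among the 5 NMD factors none lay above and Upf3b lay below without LPS, at 2.91, 0.78 and 0.91% against 0.44, 0 and 0%, which rest on 27, 5 and 6 counts against 1, 0 and 0 in a gene whose level had itself fallen. With LPS, Smg9 and Upf2 lay above, Upf2 at 1.36 and 0% against 6.67, 3.43 and 1.79%, and none lay below. Smg1, Smg6, Upf2 and Upf3b held 35 to 52 counts each in their intron bins over 11 libraries, and the Upf2 values with LPS rest on 0 to 10 counts.

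The other parts of the pathway were described from lists, to be read beside the shares called over all genes, 33.8% for SF3a1 siRNA without LPS, 38.8% with LPS and 32.1% (13.8% higher and 18.3% lower) for LPS in control cells. Changes given with a value alone have an adjusted p of 0.1 or less by edgeR and are on the log2 scale. Of 13 accessory and translation termination factors, 3 rose and 3 fell without LPS (median log2 fold change -0.12) and 4 rose and 2 fell with LPS (median 0.07). Nbas, which acts in NMD at the endoplasmic reticulum, fell by 1.18 (adjusted p = 0.00564) and by 1.59 (adjusted p = 0.000782) on the log2 scale, from 38.7, 34.6 and 34.2 CPM to 18.2, 15.2 and 14.1 CPM without LPS. Secisbp2 (0.58), a selenocysteine insertion factor, and Pabpc1 (0.42), the cytoplasmic poly-A binding protein and the most abundant of the list at 305 RPKM, rose without LPS, and the cap-binding subunit Ncbp2 (-0.81) and the ATPase Ruvbl2 (-0.37) fell. With LPS the helicase Dhx34 (0.87), Ruvbl1 (0.50), Ncbp1 (0.39) and Secisbp2 (0.39) rose and Ruvbl2 (-0.28) fell. With LPS in control cells 3 of the list rose and 2 fell.

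Of 10 exon junction complex genes, 0 were called by edgeR without LPS, 1 by DESeq2's Wald test and 1 with replicate number as a block, beside 5069, 5448 and 7053 of the 14983 genes tested. With LPS the core helicase Eif4a3 (0.38), the most abundant of the list at 95.2 RPKM, and Sap18 (0.70) rose, and Magohb (-0.82), a core subunit, fell. The list medians were 0.03 and 0.18. With LPS in control cells 1 gene rose by edgeR, and 2 to 3 of the list were called with DESeq2 or the replicate block. Those fits called 4722 to 6571 of all genes, against 4809 by edgeR.

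Among 25 mRNA decay effectors, 4 rose and 7 fell without LPS (median -0.19) and 2 rose and 7 fell with LPS (median -0.09). Xrn2, the nuclear 5′ to 3′ exonuclease, stood at 149, 167 and 174 CPM with control siRNA and 74.0, 60.1 and 72.7 CPM with SF3a1 siRNA, and fell by 1.24 (adjusted p = 0.000159) without LPS and by 1.62 (adjusted p = 2.81e-05) with LPS on the log2 scale. Xrn1, its cytoplasmic counterpart, fell by 0.78 and by 1.88 (adjusted p = 0.0366 and 0.000213). The exosome nucleases Dis3 (-0.90) and Exosc10 (-0.86), the latter the most abundant of the list at 33.9 RPKM, and the subunit Exosc2 (-0.73) fell without LPS, and Exosc10 (-0.87), Dis3 (-0.67) and Ttc37 (-0.88), of the SKI complex, fell with LPS. The decapping enhancer Edc3 rose in both (0.49 and 0.64), as did Pan3 (0.64 and 0.85), a deadenylase subunit, and Dcp1a (0.50) and Ddx6 (0.52), both of the decapping machinery, rose without LPS. With LPS in control cells 6 of the list rose and 2 fell.

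Of 13 tested genes whose transcripts are known as NMD substrates, 4 rose and 3 fell without LPS (median 0.12) and 1 rose and 4 fell with LPS (median -0.07). Without LPS the growth arrest genes Gadd45a (1.84) and Gadd45b (1.39), the stress factor Ddit3 (1.37) and the snoRNA host gene Snhg15 (0.67) rose, with 6 to 11 counts of Gadd45a per control library, and the stress factors Atf3 (-1.35) and Trib3 (-1.91) and Tbl2 (-0.83) fell. With LPS Snhg15 (0.70) rose, and Atf3 (-2.43), Upp1 (-2.20), Trib3 (-1.71) and Nat9 (-0.58) fell. Of these, Upp1 and Trib3 were highest in replicate 1 of the control cells with LPS, at 27.9 and 23.8 CPM against 4.37 and 9.06 CPM in replicate 2 and 7.18 and 9.76 CPM in replicate 3. The transcription factor Atf4 was the most abundant at 256 RPKM. LPS with control siRNA raised 7 of these 13 genes and lowered 1. With replicate number as a block, 9 rather than 5 of the 13 were called for SF3a1 siRNA with LPS, beside 7625 rather than 5818 of the 14983 genes tested.

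**Figure D4:**
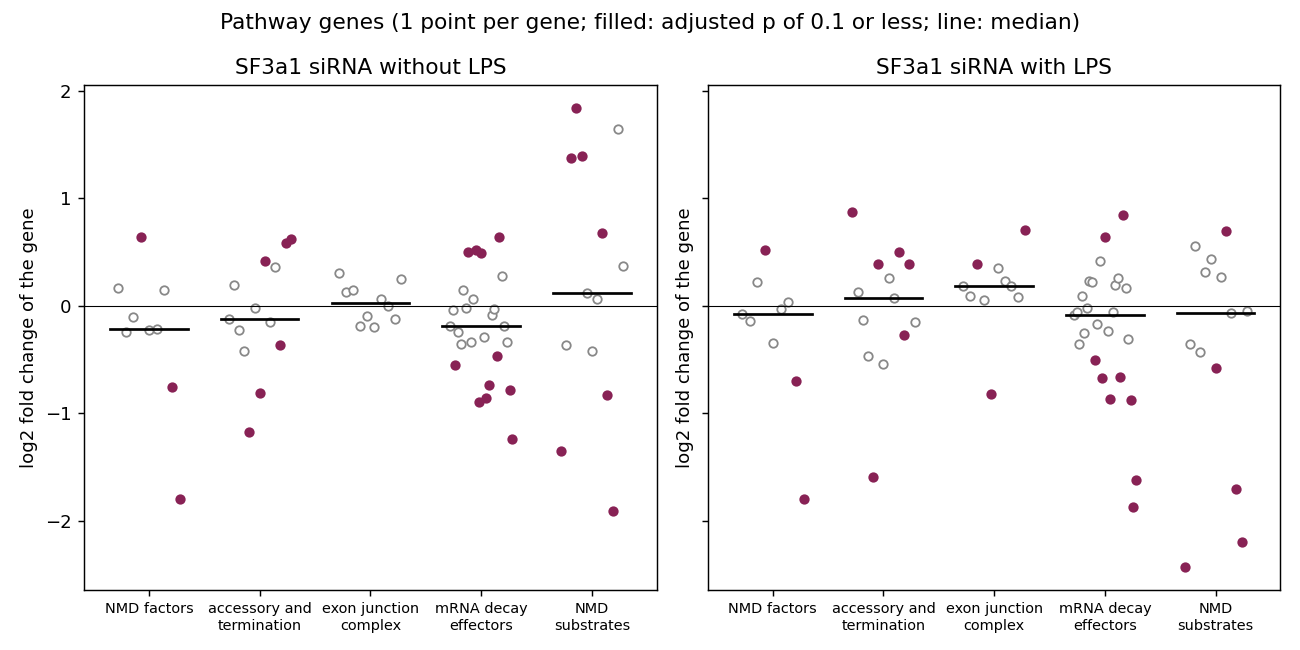
Log2 fold change in resting (left) and LPS-treated (right) cells for SF3a1 against control siRNA of each tested gene in 5 lists, 1 point per gene. Filled points have an adjusted p of 0.1 or less and lines are medians. Points of each list but the exon junction complex without LPS lie on both sides of 0 among those filled, and Upf3b and Xrn1 or Xrn2 are the lowest filled points of their lists.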

How the data were processed

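Per the labels and the methods, the authors sequenced poly-A RNA on the Ion Proton, aligned reads of at least 30 nt by GSNAP to the mm10 genome and retained unique alignments. Whether counting used strand is not given in the sources used here, so reads of overlapping antisense genes cannot be told apart. The deposited values are raw counts per Ensembl gene, from htseq-count, and per exon bin, from DEXSeq's script. No column was left unmatched. Reads assigned to no annotated feature (17.75 to 27.2% of each library, which can include intron reads) and ambiguous reads were kept out of library sizes.

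Counts were fitted with edgeR 4.0.16 in R 4.3.3 (glmQLFit, TMM, filterByExpr, no replicate term) over 12 libraries, and bins with diffSpliceDGE over 11. DESeq2 1.42.0 and limma 3.58.1 were alternatives. Levels are CPM on TMM-scaled libraries, and RPKM uses the length of the union of annotated exons. Bin positions were rebuilt from GENCODE vM21 and matched the deposited number of bins in 81.9% of 11284 genes, all 9 NMD factors included.

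In simulated SF3a1 comparisons without LPS the gene test recovered 71% of 100 2-fold and 99% of 100 4-fold changes among 38215 genes, with 8.6% false calls. The bin test recovered 89.9% of 199 4-fold changes in 3000 genes, with 31.9% false calls, above its threshold. Only bins with many counts, in genes with many counts, were changed there, so the recovery for bins with few counts is not known. The simulated dispersions, 0.04 and 0.05, were below those of the data (0.0607 and 0.0925).

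Same-numbered libraries deviated together (r of 0.14 to 0.60 in 18 pairs, against -0.52 to 0.35 in 36 others), so the replicate block was taken as a pairing in the alternative fit, while the main p-values are unpaired. No 2 replicates agreed within sampling noise (chi-square per degree of freedom of at least 8.76). It was 39.9 to 124 in pairs with replicate 1, which held the most reads in each group. Between replicates 2 and 3 it was 8.76 to 46.3. The genes described and all lists were chosen with earlier results of these data known. Named were the 9 genes and Sf3a1, for each of the 9 the bin with the smallest p over the SF3a1 comparisons, in each other list up to 4 called genes per direction and SF3a1 comparison and the most abundant gene, and the 5 genes most alike in pattern (Pearson correlation of log2 CPM). Other bins, Dis3 and Xrn1 in their second comparison and the macrophage markers were added after their values were seen. The values of 1 gene of the accessory list are not reported here.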

Additional observations from a re-analysis of the deposited data

Results flagged for a closer look

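The effect of SF3a1 siRNA differed between the states with and without LPS, by the test of the difference itself, for 3 genes of the lists, none of them among the 9 NMD factors. They were 1 of 13 accessory genes, 1 of 13 tested NMD substrates and 1 of 8 macrophage markers. None of the 10 exon junction complex genes or 25 decay effectors passed. Taken over all lists, this is close to the share of all tested genes given below. For Dhx34, a helicase that acts in NMD, the difference was 0.99 on the log2 scale (SE 0.270, adjusted p = 0.0903 by edgeR). Its SF3a1 effect was -0.12 without LPS and 0.87 with LPS, and its levels with SF3a1 siRNA and LPS were 148, 89.9 and 107 CPM, against 53.6 to 71.1 CPM with control siRNA and LPS. For Gadd45a, known as an NMD substrate, the difference was -2.28 (SE 0.476, adjusted p = 0.0297 by edgeR), between 1.84 without LPS and -0.44 with LPS. Gadd45a had 6 to 11 counts per library in resting control cells. For the Fc receptor gene Fcgr1, one of the macrophage markers, it was -2.83 (SE 0.307, adjusted p = 0.00149 by edgeR), between -0.38 and -3.20. Over all tested genes 3.47% passed this test, 520 genes, and 1756 passed with replicate number as a block.

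Reads that htseq-count assigned to no annotated feature, which enter no comparison and can include reads from introns, made up 23.2 ± 3.49% of the reads with SF3a1 siRNA without LPS (20.8 to 27.2%), against 18.6 ± 0.94% with control siRNA (17.9 to 19.6%, SD, n = 3). The 3 libraries lay above all 3 controls. With LPS the shares were 19.8 ± 1.59% and 19.0 ± 1.08%, and the groups overlapped. The part of this difference in the gene levels was not tested.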

How the results depend on the processing

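The falls of Upf3b and Upf3a and the rise of Smg8 with SF3a1 siRNA kept their direction and stayed past the threshold under every alternative run: DESeq2 size factors, DESeq2's Wald test, no filter, the groups of the contrast alone, the replicate block, each library left out and, added after seeing the data, replicates 2 and 3 alone. Leaving out libraries gave -1.92 to -1.64 for Upf3b without LPS and -1.93 to -1.69 with LPS. No called result changed sign. Among uncalled ones the sign changed for some. Examples are -0.18 to 0.15 for Upf1 and -0.29 to 0.19 for Smg1 with SF3a1 siRNA and LPS, and -0.37 to 0.04 for Smg9 with SF3a1 siRNA without LPS. For others it held, for example 0.10 to 0.34 for Upf2 with SF3a1 siRNA without LPS and -0.45 to -0.23 for Upf3b for LPS with control siRNA. For LPS with control siRNA 1 rather than 2 of the 9 genes passed without a filter. For LPS with SF3a1 siRNA 1 rather than 0 passed with the replicate block, and leaving out libraries gave 0 to 1 (1, Smg8, without replicate 1 of control siRNA with LPS). Exon junction complex genes called for LPS with control siRNA were 2, 2 and 3 with DESeq2 size factors, DESeq2 and the replicate block, beside 1, and 1 under each of the 3 for SF3a1 siRNA without LPS, beside 0. With the replicate block 9 rather than 5 NMD substrates passed for SF3a1 siRNA with LPS, beside 7625 rather than 5818 of all genes. Over the 3 alternatives run on the lists (both DESeq2 settings and the block), the accessory and decay effector counts, and the other substrate counts, moved by less than 1.5 times (up to 13 rather than 11 effectors and 10 rather than 7 substrates without LPS, and 12 rather than 9 effectors and 5 to 8 rather than 6 accessory genes with LPS). Over all genes the block called 3115 rather than 1598 for LPS with SF3a1 siRNA and 1756 rather than 520 for the difference between SF3a1 effects. Beside Smg9 and Smg8, given above, the block changed no call among the 9 genes. No bin of the 9 genes was called under any alternative run. The fit on the groups of the contrast alone could not be made for the difference between SF3a1 effects. The causes were not tested. With 3 libraries per group, the intervals of Upf1, Upf2, Smg1, Smg5 and Smg9 cover changes in either direction, and bins with few counts could not be compared.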
